A study of Mus musculus with 8 samples.

Results

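Mouse kappa light chains whose variable segment is IGKV2-137 were examined in germinal-centre B cells, across the libraries of a study on the ubiquitin ligase Deltex-1 (Dtx1). The members are cells with exactly 1 heavy-chain and 1 light-chain contig in which the light contig is assigned to IGKV2-137. There were 2441 of them, 1430 in WT and 1011 in KO libraries, among 38806 cells with a kappa chain and 40603 cells with any light chain, termed paired cells. The gene was chosen because of how often it was used in these libraries, so its use is described here without a test. IGKV2-137 was listed in 2892 light contigs in all: besides the members, 135 lay in barcodes with no heavy contig, 190 in barcodes with 1 heavy and more than 1 light contig, and 126 in barcodes with more than 1 heavy contig.

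The cells came from mouse spleen on day 10 after an immunization, were enriched with peanut agglutinin beads and sorted, and their paired receptor transcripts were sequenced from droplets. There were 4 libraries labelled WT (Dtx1+/+) and 4 labelled DTX1_KO (Dtx1-/-), called KO here. Neither the immunogen nor the age or number of the mice is stated in the labels. Receptor contigs hold no Dtx1 transcript, so the genotype labels were not checked.

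A kappa light chain is encoded by a V segment joined to a J segment, with no D segment, so the complementarity-determining region at the joint (CDR3) is set mostly by the end of V, the start of J and the few bases lost or added between them. The light chain pairs with a heavy chain built from V, D and J segments, and the 3 CDRs of each chain form most of the antigen-binding site. In germinal centres B cells mutate both V regions, switch from IgM to other classes and expand as clones. Of the mouse kappa J genes, IGKJ1 begins with a tryptophan codon, IGKJ2 with tyrosine, IGKJ4 with phenylalanine and IGKJ5 with leucine.

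IGKV2-137 lies on chromosome 6 at 67555636 to 67556216 (GRCm38.p6, which is mm10), far upstream of IGKJ2 at 70722916 to 70722954. The heavy genes that most often accompanied it, IGHV1-62-2 (115446417 to 115446710) and IGHV1-71 (115742205 to 115742506), lie on chromosome 12. The most common sequence over clones, from framework 1 to framework 3, is shown for the light gene and for these heavy genes because the results turn on their pairing, with CDR1 and CDR2 in capitals.
IGKV2-137: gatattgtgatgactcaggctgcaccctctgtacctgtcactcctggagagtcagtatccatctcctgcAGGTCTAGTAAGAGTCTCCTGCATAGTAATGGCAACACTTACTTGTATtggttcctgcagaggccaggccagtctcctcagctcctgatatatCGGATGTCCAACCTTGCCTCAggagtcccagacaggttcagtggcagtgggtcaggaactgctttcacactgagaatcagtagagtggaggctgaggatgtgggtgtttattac
IGHV1-62-2 and IGHV1-71: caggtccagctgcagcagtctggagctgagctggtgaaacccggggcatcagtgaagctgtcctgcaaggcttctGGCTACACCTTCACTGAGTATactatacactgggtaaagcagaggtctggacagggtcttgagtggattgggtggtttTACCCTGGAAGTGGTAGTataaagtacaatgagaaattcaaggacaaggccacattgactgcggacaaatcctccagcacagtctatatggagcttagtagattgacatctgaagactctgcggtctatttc
The heavy sequence is printed once because it was the same under both names, with 0 of 285 nucleotides differing. The names therefore cannot be told apart from these codons. With IGKV2-137 these genes had 515 heavy CDR3 nucleotide sequences in 1730 cells. Of these, 6 sequences, held by 144 cells, were listed under both names. Cells with either heavy gene are called pair cells below when their light chain was IGKV2-137. The nearest light genes of the same length were IGKV2-109, with 25 differing nucleotides of 276 (identity 90.9%), and IGKV2-112, with 41 (85.1%).

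The light CDR3 carries the V-J joint, and the 8 nucleotide sequences found in the most clones are shown with the bases that differ from the first one in capitals. All run from the conserved cysteine codon to the conserved phenylalanine codon.
Light CDR3 1: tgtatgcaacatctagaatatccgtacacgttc
Light CDR3 2: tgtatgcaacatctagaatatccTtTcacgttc
Light CDR3 3: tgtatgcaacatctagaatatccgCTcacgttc
Light CDR3 4: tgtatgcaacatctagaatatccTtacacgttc
Light CDR3 5: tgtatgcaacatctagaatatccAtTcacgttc
Light CDR3 6: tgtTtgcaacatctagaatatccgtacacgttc
Light CDR3 7: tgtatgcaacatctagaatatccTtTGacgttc
Light CDR3 8: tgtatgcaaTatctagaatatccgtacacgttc

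Libraries held 4585 to 5712 paired cells, 754954 to 1155339 unique molecular identifiers (UMIs) and 232 to 384 IGKV2-137 cells, so 3 cells are 0.781 to 1.29% of the members of a library (counting error only). Any pair of libraries of one genotype shared 44 to 67 IGKV2-137 clonotypes (same IGHV gene and both CDR3 sequences), and any pair of different genotypes shared 0 to 2. The libraries of a genotype thus divide 1 pool of clones, so that the SDs and p-values given here speak of 1 WT pool and 1 KO pool and not of animals. Members of different libraries shared 2 cell barcodes, neither with the same clonotype. In WT replicate 2 the unrelated gene IGKV6-13 made up 2.40% of kappa cells, against 0.139 to 0.571% in the other 7 libraries. Without IGKV6-13 cells the IGKV2-137 share of that library was 7.77% in place of 7.58%.

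IGKV2-137 was carried by more kappa cells of the WT pool than of the KO pool, and nearly all of that gap lay in cells with IGHV1-62-2 or IGHV1-71. The gene took 7.82, 7.58, 8.82 and 8.33% of kappa cells in WT replicates 1 to 4 and 4.32, 5.20, 4.60 and 4.93% in KO replicates 1 to 4. Every WT library was above every KO library. The means were 8.14% ± 0.551 (SD, n = 4) and 4.76% ± 0.382 (SD, n = 4). Counting each clone of a library once, they were 5.18% ± 0.531 and 3.62% ± 0.196. Among kappa cells with any other heavy gene, IGKV2-137 was carried by 1.96, 1.87, 2.11 and 1.90% in WT and by 1.84, 2.18, 1.52 and 2.15% in KO. These values overlapped, with means of 1.96% ± 0.108 and 1.92% ± 0.310. These are shares, so a lower share of one pairing cannot be told apart from more cells of the others.

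**Figure D1:**
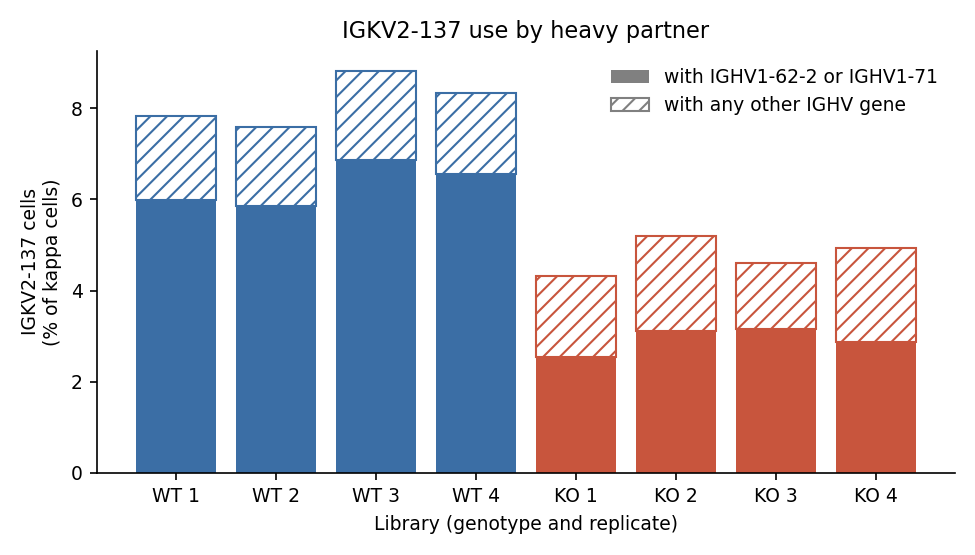
Share of kappa cells that carried IGKV2-137 in each of the 8 libraries, in percent, split into cells with IGHV1-62-2 or IGHV1-71 (filled) and cells with any other IGHV gene (hatched). The whole bars stand between 7.58 and 8.82% in WT and between 4.32 and 5.20% in KO, and the hatched parts are of like height in both.

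Pair cells made up 76.6, 77.1, 77.9 and 78.8% of IGKV2-137 cells in the WT libraries and 59.1, 59.7, 68.4 and 58.1% in the KO libraries, with no overlap between the groups. The same heavy genes were carried by 0.748% ± 0.284 (WT) and 1.09% ± 0.163 (KO) of kappa cells with another light gene. Counted by clone, the pair took 65.1% ± 3.05 of IGKV2-137 clones in WT and 48.0% ± 3.59 in KO. The pairing held from the heavy side too. Of all cells with either heavy gene, 89.5, 82.6, 90.9 and 92.5% carried IGKV2-137 in WT and 66.8, 77.5, 75.3 and 74.1% in KO. In the KO pool the next light genes of these heavy chains were IGKV6-15 (60 cells in 4 clones), IGKV2-109 (30 cells in 11 clones) and IGKV6-23 (22 cells in 2 clones). In the WT pool they were the lambda gene IGLV1 (17 cells in 9 clones) and IGKV10-96 (16 cells in 7 clones). IGKV2-109 is the light gene closest in sequence to IGKV2-137.

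Both names of the pair stood out when the heavy partners of IGKV2-137 were set against those of the other kappa cells of the same library. The cells per IGHV gene were tested with edgeR (quasi-likelihood, library as a block, adjusted over the 45 genes tested). The test called 38 genes, which is 84.4% of those tested, so that a call by itself says little about a gene: 2 were higher and 36 lower among IGKV2-137 cells. IGHV1-71 was higher by 6.37 on the log2 scale (SE 0.309, adjusted p = 2.11e-37) and IGHV1-62-2 by 6.15 (SE 0.323, adjusted p = 1.01e-34), in all 8 libraries. Taken as 1 gene they were higher by 6.26 (SE 0.258). Several frequent heavy genes of the other kappa cells were rare with IGKV2-137, though IGHV1-81, described below, was not. IGHV1-55 took 0.145% ± 0.168 of IGKV2-137 cells and 6.58% ± 0.377 of other kappa cells in WT, and 0.589% ± 0.399 against 3.75% ± 0.153 in KO. IGHV8-12, IGHV1-18, IGHV1-26, IGHV2-2, IGHV8-8, IGHV1-74 and IGHV1-52 were also among the 10 lower genes with the smallest p, at 0 to 20 cells in a pool. IGHV7-3 and IGHV5-9 completed them with 0 of 2441 cells, which allows a share of up to 0.123% (3 cells of the total), while IGHV7-3 took 0.687% (WT) and 1.15% (KO) of other kappa cells.

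Shares of one whole move together, so the pair cells, at 70.9% of the members, lower every other share. Without cells of the pair's heavy genes in either class, edgeR called 15 of 46 genes, 5 higher and 10 lower. IGHV1-55 was still lower by 2.15 (log2 fold change -2.15, adjusted p = 0.00136), as were IGHV8-12 (-2.27) and IGHV1-18 (-2.43), whereas IGHV8-8 (-0.59, adjusted p = 0.212) and IGHV1-26 (-1.18, adjusted p = 0.0599) did not pass. IGHV1-81 had a log2 fold change of -0.50 (adjusted p = 0.155) with all cells and 1.33 (adjusted p = 0.00136) without the pair. That value joins unlike pools: among members outside the pair IGHV1-81 took 39.4% of WT and 5.88% of KO cells, beside 8.00% ± 0.347 and 5.72% ± 0.385 of all other kappa cells. IGHV1-59 went from 0.02 to 1.73 (adjusted p = 0.00276) and IGHV1-22 from -0.10 to 1.77 (adjusted p = 0.00746).

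The heavy partners were fewer in the WT pool. IGKV2-137 cells used 63 IGHV genes in all, 42 in WT and 57 in KO, and 15 of the 63 appeared in only 1 or 2 cells. The effective number of IGHV genes, the exponential of the Shannon entropy of their shares, was 4.75, 5.00, 4.77 and 4.75 in the WT libraries and 11.3, 11.2, 8.13 and 11.0 in the KO libraries. The 10 most frequent partners held 2142 cells (87.8%). Between KO and WT members, the count filter of edgeR left only 3 genes, of which 2 were called (66.7%), both lower in KO. Without that filter 18 of 63 were called, 14 higher and 4 lower. IGHV1-62-2 took 43.9, 48.5, 48.2 and 45.4% of WT and 28.0, 21.2, 30.0 and 26.1% of KO members (log2 fold change -0.83, SE 0.107, adjusted p = 5.87e-07). IGHV1-71 took 32.7, 28.6, 29.7 and 33.4% of WT and 31.0, 38.5, 38.4 and 32.0% of KO members. Its groups overlapped and it was not called (log2 fold change 0.18, SE 0.106, adjusted p = 0.110). With TMM factors it was called higher in KO (0.55, adjusted p = 1.83e-05), and with DESeq2 too (1.01, adjusted p = 3.19e-08). Both take their scaling from only the 3 genes left by the filter. DESeq2 scales by the median ratio, which set IGHV1-62-2, the middle gene of the 3, to a log2 fold change of 6.64e-08. These fits thus set the genes against each other and not against all IGKV2-137 cells. As 1 gene the pair was lower in KO by 0.34 (log2 fold change -0.34, SE 0.0492, adjusted p = 1.63e-05 by edgeR). The gene was chosen by its use, and nearly all of the gap in use between the pools lay in pair cells. The values of the pair and of IGHV1-62-2 between the pools are therefore tied to that choice and serve as description. The same holds for the effective number of IGHV genes, which depends on the share of the pair.

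IGHV1-81, a frequent heavy gene of these germinal-centre cells, came next among the partners. It took 10.7, 8.73, 8.07 and 7.80% of WT and 2.16, 1.74, 2.80 and 2.49% of KO members (log2 fold change -1.93, SE 0.209, adjusted p = 8.84e-08 by edgeR). All WT libraries were above all KO libraries. The 126 WT cells formed 18 clones and the 23 KO cells 15 clones, and the largest clone had 30 cells in WT and 4 in KO, so the pools differed in cells per clone more than in clones. Counting each clone once, IGHV1-81 did not pass the count filter and was not tested. Among all cells with IGHV1-81, 8.76% carried IGKV2-137 in WT and 1.91% in KO. IGHV1-53, IGHV1-59 and IGHV1-22 each rested mostly on 1 clone. IGHV1-53 took 0.335% ± 0.325 of WT and 3.93% ± 2.03 of KO members, and 36 of its 40 KO cells were 1 clone. IGHV1-59 took 0.291% ± 0.246 and 2.81% ± 0.526, and 27 of its 28 KO cells were 1 clone. IGHV1-22 took 1.39% ± 0.311 and 0.0868% ± 0.174, and 19 of its 20 WT cells were 1 clone. IGHV1-9 (2.37% ± 0.238 and 2.44% ± 1.19, in 16 clones of each pool) and IGHV9-3 (1.68% ± 0.495 and 2.52% ± 0.778, in 7 and 10 clones) overlapped between the pools. IGHV8-8 took 0.641% ± 0.478 and 2.01% ± 0.885, and IGHV2-5 0.626% ± 0.105 and 1.77% ± 0.682.

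**Figure D2:**
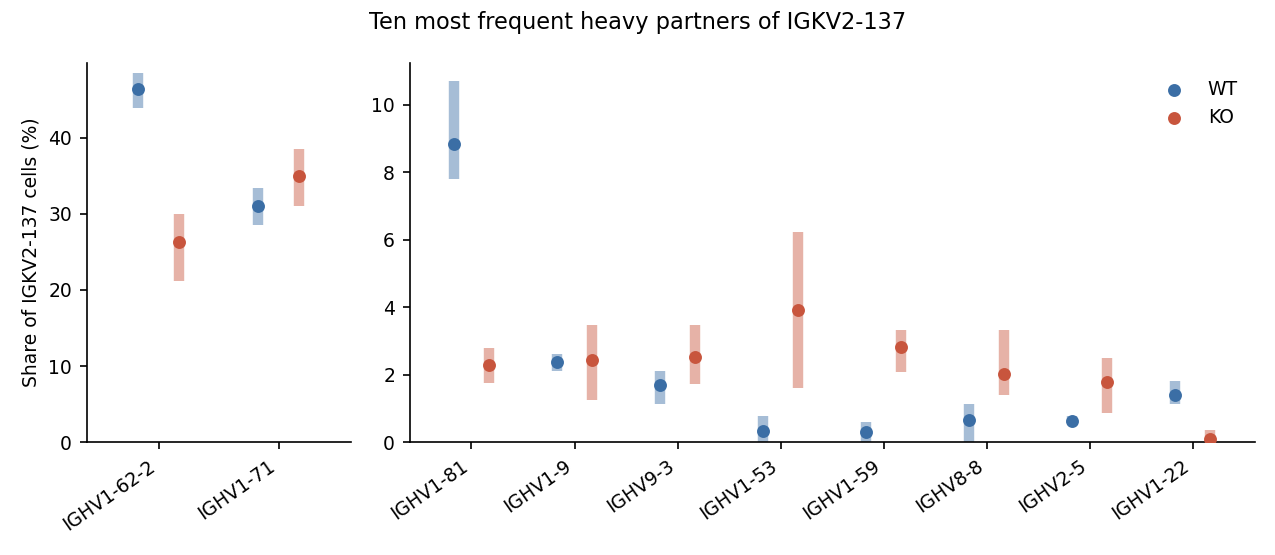
The 10 IGHV genes with the most IGKV2-137 cells, as percent of the IGKV2-137 cells of a library; points are means of 4 libraries and bars run from the lowest to the highest library, with the pair genes on a scale of their own at the left. IGHV1-62-2 and IGHV1-81 stand higher in WT, at means of 46.5 and 8.83% against 26.3 and 2.30% in KO, and the IGHV1-71 ranges overlap.

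IGKV2-137 was joined mainly to IGKJ2 and almost never to IGKJ1. IGKJ2 was used by 87.6, 88.6, 87.5 and 89.7% of WT and 80.2, 74.7, 82.8 and 78.8% of KO members, against 30.2% ± 1.47 and 27.3% ± 0.387 of other kappa cells. The mean difference within libraries was 55.0 percentage points, higher in 8 of 8 libraries (exact sign-flip permutation test, two-sided, p = 0.00781, the smallest it can give; adjusted p = 0.0104 over 16 values). IGKJ1 was used by 15 members, 12 in WT and 3 in KO, while it took 30.2% ± 0.770 (WT) and 27.9% ± 0.294 (KO) of other kappa cells. Its difference of -28.5 percentage points had the same exact permutation p and adjusted p. IGKJ4 took 3.68% ± 0.924 (WT) and 8.37% ± 1.39 (KO) of members against 14.6% ± 0.624 and 16.2% ± 0.281 of other kappa cells, and IGKJ5 took 7.15% ± 0.343 and 12.2% ± 3.44 against 25.0% ± 0.621 and 28.6% ± 0.425. Both were lower among members in 8 of 8 libraries (adjusted p = 0.0104).

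The J gene moved with the heavy partner. In pair cells IGKJ2 was used by 95.2, 97.3, 95.7 and 95.4% in WT and by 85.4, 83.7, 90.1 and 88.6% in KO, and IGKJ1 by none of the 1730 cells. Over a pool, IGKJ2 took 99.1% (WT) and 96.6% (KO) of pair cells named IGHV1-62-2, and 91.0 and 79.8% of those named IGHV1-71. With other heavy genes, IGKJ2 was used by 62.7, 59.2, 58.8 and 68.4% of IGKV2-137 cells in WT and by 72.6, 61.2, 67.1 and 65.3% in KO, and the groups overlapped. Single partners differed widely. With IGHV1-9 as the partner, IGKJ5 took 44.1% of 34 WT and 40.0% of 25 KO cells and IGKJ2 29.4 and 36.0%. With IGHV9-3, IGKJ2 took 100% of 24 WT and 96.2% of 26 KO cells, so such high shares were not particular to the pair. Related and frequent light genes are set beside it with no test. IGKV2-109 used IGKJ2 in 35.8% ± 3.59 (WT, 128 cells) and 33% ± 3.53 (KO, 280 cells) and IGKJ1 in 43.9% ± 4.80 and 50.7% ± 6.53. IGKV2-112 used IGKJ2 in 32.6% ± 21.3 (WT, 51 cells) and 31.9% ± 10.4 (KO, 56 cells). The other frequent kappa genes IGKV1-117, IGKV1-110 and IGKV1-135 used IGKJ2 in 12.5 to 32.8% of their cells. Their most frequent heavy gene took between 14.9 and 61.2% of them, the highest being IGHV1-81 with IGKV1-135 in WT. Between the pools, the IGKJ2 share of members differed by -9.22 percentage points (exact permutation test, two-sided, p = 0.0286, the smallest it can give; adjusted p = 0.0762 over 16 values) and did not pass.

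**Figure D3:**
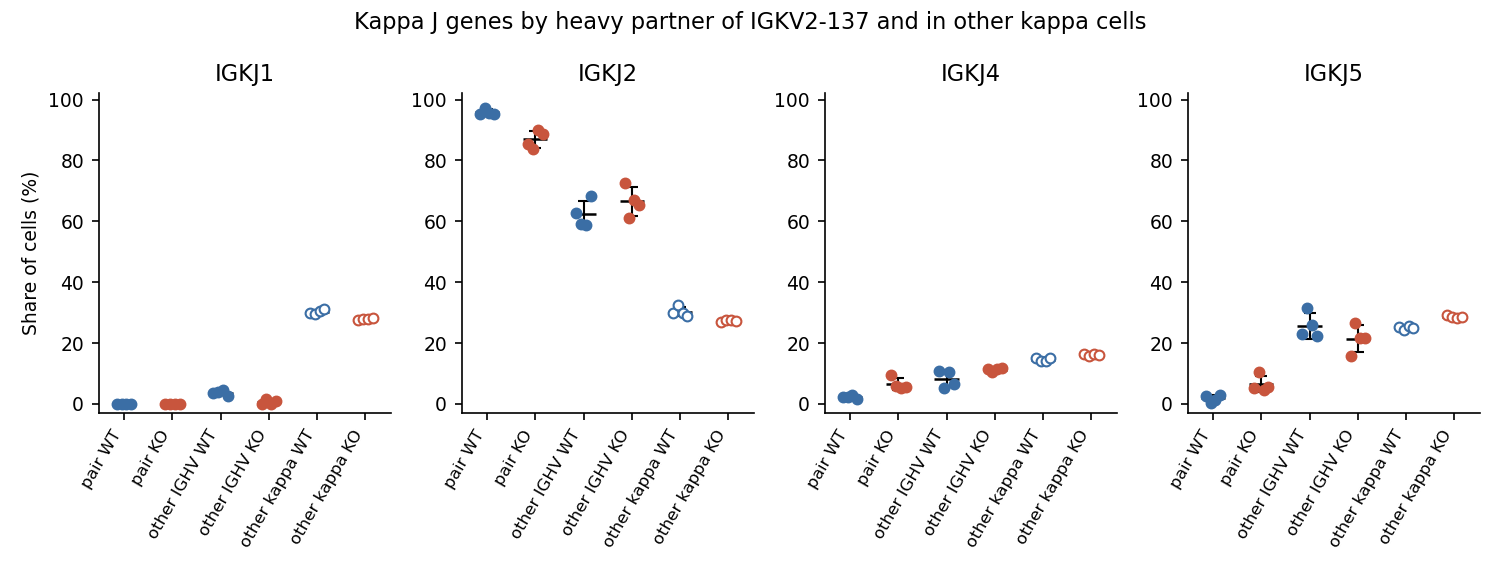
Share of cells with each kappa J gene, in percent, for IGKV2-137 cells with IGHV1-62-2 or IGHV1-71 (pair), IGKV2-137 cells with other IGHV genes, and other kappa cells (open points), in WT (blue) and KO (red). Points are libraries, bars the mean and whiskers the SD; IGKJ2 stands at a mean of 95.9% in WT pair cells, 86.9% in KO pair cells, and 30.2% (WT) and 27.3% (KO) in other kappa cells.

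The light CDR3 followed from this V and J use. It was 33 nucleotides long in 2440 of the 2441 members, against 92.1% ± 0.335 (WT) and 90.8% ± 0.158 (KO) of other kappa cells (higher in 8 of 8 libraries, exact sign-flip permutation test, adjusted p = 0.0104). In all, 63 distinct nucleotide sequences occurred, 48 in WT and 26 in KO. Light CDR3 1, printed above with IGKJ2, was carried by 1698 cells in 336 clones of all 8 libraries, 74.4% ± 1.21 of WT and 63.1% ± 4.46 of KO members, and 80.0% of these cells had a heavy gene of the pair. Light CDR3 4 differs from it by 1 base in the proline codon, encodes the same residues, and was carried by 220 cells in 61 clones. Light CDR3 6 and Light CDR3 8 each differ by 1 base within the V part and were carried by 11 cells in 10 clones and 7 cells in 6 clones.

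Every CDR3 codon but codon 9 held its most common residue in at least 98.6% of cells. The residue that varied was the one at codon 9, at the V-J joint. Tyrosine stood there in 86.4% ± 1.22 of WT and 75.2% ± 3.94 of KO members, phenylalanine in 7.13% ± 0.678 and 15.3% ± 0.463, and leucine in 6.36% ± 0.571 and 9.41% ± 3.86. Tryptophan, the residue that an untrimmed IGKJ1 would bring, was found in 1 WT cell and no KO cell, whereas 16.7% ± 0.654 (WT) and 17.1% ± 0.538 (KO) of other kappa cells with a CDR3 of the same length had it. Even of the 15 members that used IGKJ1, 14 carried leucine in its place, as in Light CDR3 7. Light CDR3 2 and Light CDR3 5, with phenylalanine, were carried by 193 and 55 cells in 89 and 24 clones, and Light CDR3 3, with leucine and IGKJ5, by 159 cells in 63 clones. Phenylalanine does not name the J gene. Over both pools it stood with IGKJ4 in 137 cells, with IGKJ2 in 60 and with IGKJ5 in 59, and Light CDR3 2 occurred with each of these. Of the tyrosine cells 85.0% (WT) and 69.2% (KO) were pair cells, of the phenylalanine cells 49.0 and 43.5%, and of the leucine cells 9.89 and 28.9%.

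The heavy CDR3 of the pair cells mostly began in one way. Its most common first 4 codons, TGTGCAAGACAC, were carried by 83.5% ± 1.57 of WT and 90.1% ± 1.62 of KO pair cells. They were carried by 0% of WT and 0.526% ± 1.05 of KO members with another heavy gene, where the only ones were in KO replicate 1. A CDR3 starts with the end of V, so this contrast cannot be told apart from the difference in heavy V gene. Cells with the same heavy genes and another light gene were not compared for this start. IGHJ3 was used by 54.3% ± 2.69 (WT) and 52.2% ± 4.46 (KO) of members against 26.2% ± 0.361 and 23.1% ± 0.769 of other kappa cells, higher in 8 of 8 libraries by a mean of 28.6 percentage points (exact sign-flip permutation test, adjusted p = 0.0104). In pair cells it took 60.1% ± 1.74 (WT) and 67.9% ± 3.03 (KO), and in members with other heavy genes 34.0% ± 7.91 and 27.2% ± 4.78. IGHJ1, IGHJ2 and IGHJ4 were each lower among members in 8 of 8 libraries (adjusted p = 0.0104). IGHJ1 stood at 7.19% ± 1.02 and 6.63% ± 1.99, IGHJ2 at 23.9% ± 1.27 and 23.0% ± 0.871, and IGHJ4 at 14.7% ± 2.10 and 18.1% ± 2.62. Split by partner with no test, the lower IGHJ4 lay in pair cells, at 10.9% ± 2.09 (WT) and 6.82% ± 2.26 (KO). Members with other heavy genes had 27.8% ± 2.46 and 36.2% ± 3.95, against 25.9% ± 0.396 and 27.3% ± 1.03 of other kappa cells. Only in WT replicate 4 was this share below that of other kappa cells. IGHJ2 in members with other heavy genes was 31.1% ± 1.83 in KO, near other kappa cells (30.5% ± 0.243), and lower in WT by the mean. Their IGHJ1 was lower in both pools. The heavy CDR3 was 14.1 ± 0.0590 codons long in WT and 13.9 ± 0.266 in KO members, against 14.4 ± 0.0345 and 14.5 ± 0.0453 in other kappa cells (difference -0.48 codons, lower in 8 of 8 libraries, adjusted p = 0.0104). Of the heavy J values and the CDR3 length, none passed between the pools. By partner, given with no test, the length differed in opposite directions. It was 13.9 ± 0.0305 codons in WT and 14.2 ± 0.188 in KO pair cells, and 14.8 ± 0.259 in WT and 13.4 ± 0.375 in KO members with another heavy gene, and the pools did not overlap in either.

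The members formed 584 clones, defined over a pool by the same V and J genes of both chains and heavy CDR3s of at least 0.85 nucleotide identity. There were 272 in WT and 312 in KO, of which 146 and 197 were single cells and 29 and 21 had 10 or more cells. The 5 largest clones held 26.9% of WT and 22.5% of KO members. The most common heavy CDR3 of each is shown because all but 1 of these 10 clones were pair cells, with capitals where the first 4 codons are the common ones.
WT clone 1: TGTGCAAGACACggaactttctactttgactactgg
WT clone 2: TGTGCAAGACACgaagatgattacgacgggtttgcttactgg
WT clone 3: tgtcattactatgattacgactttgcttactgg
WT clone 4: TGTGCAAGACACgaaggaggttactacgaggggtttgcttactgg
WT clone 5: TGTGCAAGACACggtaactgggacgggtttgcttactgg
KO clone 1: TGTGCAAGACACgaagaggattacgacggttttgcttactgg
KO clone 2: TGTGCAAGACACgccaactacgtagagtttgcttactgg
KO clone 3: tgtgcaagaaatactagatttgactactgg
KO clone 4: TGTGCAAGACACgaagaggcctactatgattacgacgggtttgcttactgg
KO clone 5: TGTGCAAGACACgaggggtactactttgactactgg

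WT clone 1 (IGHV1-62-2 with IGHJ2) had 108 cells, spread as 29, 27, 28 and 24 over the libraries. It joined 23 heavy CDR3 sequences, of which the printed one was carried by 55 cells. Whether these are variants of 1 rearrangement was not tested. WT clone 2 (IGHV1-62-2 with IGHJ3) had 82 cells and 9 sequences, and KO clone 1 (IGHV1-62-2 with IGHJ3) 88 cells and 17 sequences. The printed heavy CDR3 of KO clone 1 was carried by 30 cells and its most common light CDR3 by 48, and the clone was spread as 19, 23, 24 and 22 cells. WT clone 3 had 67 cells, all IgM with the same heavy CDR3 and with no mutation in either V region, and its heavy CDR3 lacks the common start. KO clone 3 (IGHV1-53) was the clone outside the pair, with 36 unmutated IgM cells of 1 heavy CDR3. WT clone 4, KO clone 2, KO clone 4 and KO clone 5 were likewise without a V mutation in any cell, and KO clone 5 was joined to IGKJ4. Their printed heavy CDR3 was carried by 64 of 65, 40 of 41, 16 of 32 and 16 of 30 cells. KO clone 4 joined 4 heavy CDR3 sequences and KO clone 5 joined 2. Whether each of these clones is 1 rearrangement or several was not tested.

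Some heavy CDR3s turned up in both pools, and their counts are given with no test. At the protein level, 13 combinations of heavy CDR3 with V and light genes were found in both pools for the pair, 4.32% of the 301 in WT and 7.22% of the 180 in KO, and they held 20.9% of WT and 11.6% of KO pair cells. Among other kappa cells 119 were found in both, 1.45% of the WT and 1.10% of the KO combinations, and for IGKV2-137 with other heavy genes 3 (2.08 and 1.38%). At the nucleotide level there were 3 for the pair (0.915 and 1.54%), 0 for IGKV2-137 with other heavy genes and 42 for other kappa cells (0.495 and 0.379%). One of the 3 is the sequence printed for WT clone 2, carried by 59 WT and 4 KO pair cells.

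Use counted in cells grows with clone size, so the share of cells in expanded clones is tied to how the gene was chosen and is given as a description. Expanded clones were defined as 2 or more cells after each library was thinned to 4585 cells. The share was 79.1, 73.1, 79.0 and 74.9% in WT and 55.3, 63.7, 62.4 and 67.2% in KO, against 53.2% ± 2.99 and 43.7% ± 0.910 of other kappa cells. The mean difference from other kappa cells was 20.9 percentage points, and 12.4 with each clone counted once. Every WT library was above every KO library, by -14.4 percentage points for KO minus WT, and by -8.00 with each clone counted once. The difference between pools was of the same sign in other kappa cells.

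The light V region carried few mutations. The germline was taken as the printed sequence, and 2072 of 2441 members did not differ from it over 276 nucleotides. Mutation was 0.106, 0.0949, 0.134 and 0.129% of light V nucleotides in WT and 0.0921, 0.0528, 0.0783 and 0.0556% in KO members. Each library was below its other kappa cells, which had 0.222% ± 0.0129 in WT and 0.111% ± 0.00164 in KO (difference -0.0739, 8 of 8 libraries, exact sign-flip permutation test, adjusted p = 0.0104). Cells without a light V mutation were 82.0% ± 1.84 of WT and 88.9% ± 3.18 of KO members, against 74.2% ± 0.704 and 85.0% ± 0.359 of other kappa cells. That share was higher in 7 of 8 libraries (difference 5.88 percentage points, exact sign-flip permutation test, adjusted p = 0.0192). Counting each clone once it was 2.78 and not called (adjusted p = 0.152). The groups did not overlap between the pools for either value (exact permutation p = 0.0286, adjusted p = 0.0762), and none was called. With each clone counted once, KO minus WT was -0.108 in place of -0.0463 for light V mutation and 15.1 in place of 6.87 percentage points for cells without a mutation, again not called (adjusted p = 0.0914 for both). Within IgM members the light V mutation was 0.0977% ± 0.0114 in WT and 0.0580% ± 0.0143 in KO, and within switched members 0.473% ± 0.168 and 0.270% ± 0.0950. Pair cells had 0.104% ± 0.0160 (WT) and 0.0606% ± 0.00649 (KO), without overlap.

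Heavy V mutation did not separate members from other kappa cells by the test. It was 0.341% ± 0.0385 of IGHV nucleotides in WT and 0.264% ± 0.0691 in KO members, against 0.451% ± 0.0178 and 0.222% ± 0.0143 (difference -0.0343, 2 of 8 libraries higher, exact sign-flip permutation p = 0.312, adjusted p = 0.312). The difference was -0.0126 without WT replicate 2, -0.0553 without KO replicate 1 and 0.0485 with each clone counted once. Between the pools it was -0.0765 for KO minus WT, and -0.238 with each clone counted once, neither called (adjusted p = 0.203 and 0.131). Members were below other kappa cells in all 4 WT libraries, and the difference of the differences was 0.153 (exact permutation p = 0.0286, the smallest possible; adjusted p = 0.0762), which did not pass. Members and other cells also differed in depth: median heavy UMIs per library were 31 to 36 against 21 to 24 in WT and 45 to 53 against 37 to 41 in KO. Light UMIs were 55 to 63 against 63.5 to 69 in WT and 68 to 69 against 70 to 79 in KO. The part of UMI depth in these values was not tested beyond a minimum of 5 UMIs per chain, under which no mutation value changed its side of the threshold.

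**Figure D4:**
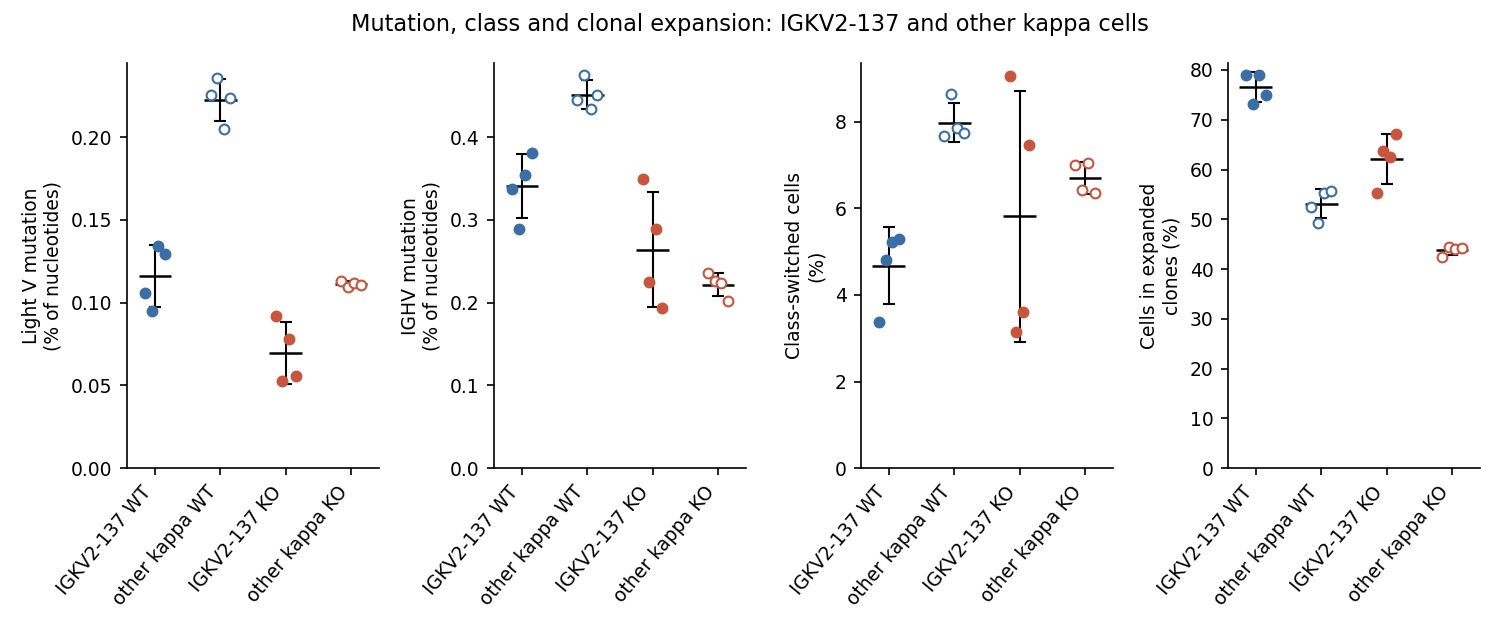
Light V mutation, IGHV mutation, class-switched cells and cells in expanded clones for IGKV2-137 cells (filled) and other kappa cells (open) of each library, in WT (blue) and KO (red); bars are means and whiskers the SD of 4 libraries. IGKV2-137 cells lie below other kappa cells of their pool in light V mutation and above them in expanded clones, and the IGHV mutation of KO members spans from 0.194 to 0.349%.

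Replacements in the light chain gathered at a few codons. Codons are counted from 1 at the first residue of framework 1, and 99 were read in 583 clones, up to the seventh of CDR3. In 19 of them no cell had a replacement, and in 12 at least 10 clones had one. The codon replaced in the most clones was 51 in framework 2 (27 clones, 4.63%), mainly as L51F (15 cells) and L51V (10 cells). Next came codon 94, the second of CDR3 (26 clones, 4.46%), as M94L (17 cells) and M94V (10 cells), and codon 39 at the end of CDR1 (23 clones, 3.95%), as Y39F (13 cells). Codon 96 in CDR3 was replaced in 18 clones, mainly as H96Y, codon 26 in CDR1 in 16, mainly as S26N, and codon 32 in CDR1 in 15, mainly as S32G. In framework 1, codons 11 and 12 were each replaced in 15 clones, mainly as V11I and P12S. By region there were 10.1 replacement-carrying cells per codon in the CDR3 part and 8.31 in CDR1, against 4.3 in framework 1, 4.13 in framework 2, 3.29 in CDR2 and 3.58 in framework 3. At codon 51 the share was 6.62% of WT and 2.89% of KO clones, at codon 94 it was 6.25 and 2.89%, and at codon 39 it was 6.62 and 1.61%, as clones of a pool and with no test. A clone counts when any of its cells is replaced, so these shares grow with clone size. Members had 2.69 ± 0.124 cells per clone in WT and 1.98 ± 0.148 in KO libraries. In cells, codon 51 was replaced in 20 of WT and 9 of KO, codon 94 in 24 and 9, and codon 39 in 25 and 5. The pools held 1430 and 1011 members.

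**Figure D5:**
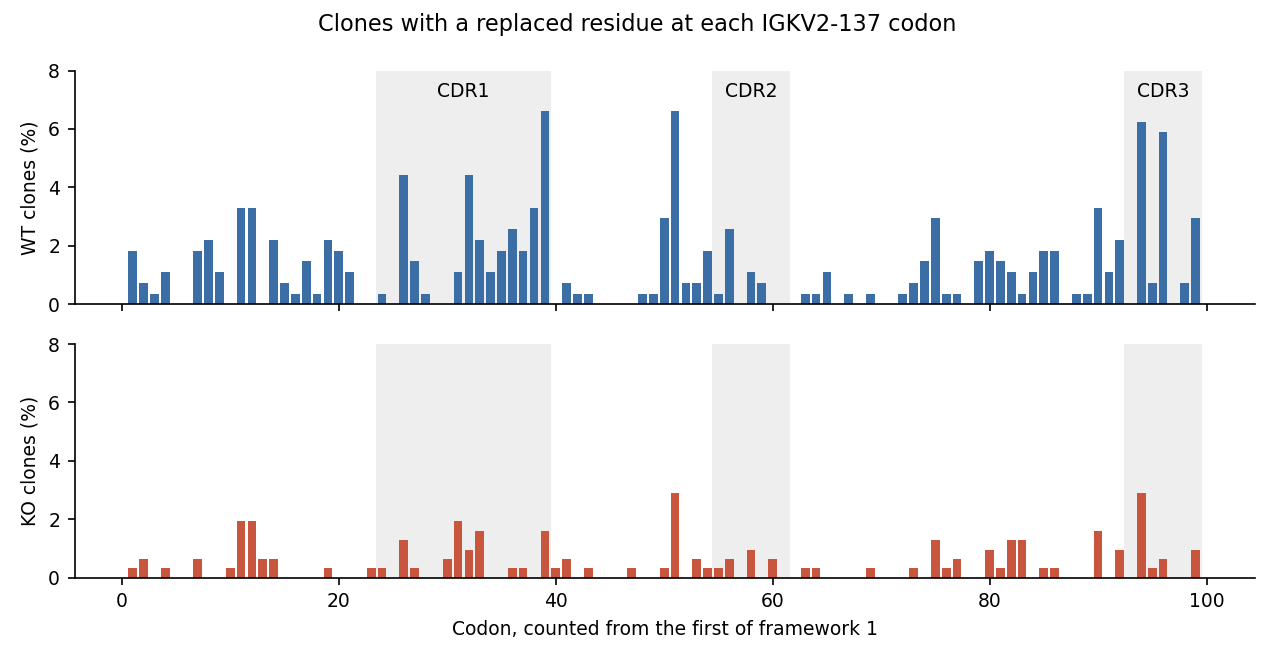
Percent of IGKV2-137 clones of the WT pool (top, 272 clones) and of the KO pool (bottom, 311 clones) with at least 1 cell whose residue is replaced at each of 99 codons; gray bands mark the CDRs, the last of them up to its seventh codon. The highest bars stand at codons 39, 51, 94 and 96 in WT, at 5.88 to 6.62%, and at codons 51 and 94 in KO, at 2.89%. The percent grows with the number of cells per clone, which was higher in WT.

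Most members expressed IgM. IGHM was listed in 315 to 363 cells of a WT and 211 to 278 cells of a KO library. Class-switched cells were 3.38, 4.82, 5.22 and 5.29% of WT and 9.05, 3.14, 3.60 and 7.47% of KO members, against 7.98% ± 0.455 and 6.70% ± 0.373 of other kappa cells. The difference from other kappa cells was -2.10 percentage points, with 2 of 8 libraries higher, and was not called (exact sign-flip permutation p = 0.0469, adjusted p = 0.0536). It passed without KO replicate 1 (-2.69, adjusted p = 0.0357) or without KO replicate 4 (-2.55, adjusted p = 0.0357), and with a minimum of 5 UMIs per chain (-1.97, adjusted p = 0.0446). With each clone counted once it was -1.57 and did not pass (adjusted p = 0.180 by the same test). IGHG1, the IgG1 constant gene, was listed in 9 to 12 cells of each WT and 6 to 17 cells of each KO library. Its share of switched members was 65.3% ± 17.2 in WT and 78.6% ± 15.8 in KO, against 44.3% ± 1.83 and 78.8% ± 1.21 in other kappa cells, and none of its 3 comparisons passed. Each share rests on 9 to 21 switched cells. IGHG2B was listed in 2 to 6 cells of a WT and 0 to 4 of a KO library, IGHG3 in 0 to 4 of either, IGHG2C in 1 cell and IGHA and IGHE in 0. IGHG3 was listed in 1 WT and 0 KO pair cells and in 6 WT and 5 KO members with another heavy gene, and IGHG2B in 17 and 7 pair cells and in 0 and 1 of the others.

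Signs of other B-cell types were looked for. IGHD, which naive cells carry beside IGHM, was listed in 1 of the 2441 members. The B-1-cell genes IGHV11-2 and IGHV12-3 were listed in 0, which allows up to 0.123% (3 cells of the total), but these genes have kappa partners of their own, so the count says nothing of B-1 cells. Heavy UMIs of at least 10 times the library median, as in plasma cells, were found in 8 of 2441 members and 133 of 36365 other kappa cells. Unmutated IGHV regions, which naive and recently activated cells share, were seen in 70.7% ± 1.28 of WT and 76.0% ± 3.95 of KO members. The IGHD count and these unmutated shares are not set beside other kappa cells here and describe the members only. The contigs hold no transcript that marks a germinal centre, so the sorted identity was not checked further.

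Over all 16 values compared, 13 were called between IGKV2-137 and other kappa cells of the same library, among them the share in expanded clones, which is tied to the choice of the gene. Between the KO and WT pools 0 of 16 were called after adjustment by the exact permutation test. An unadjusted p under 0.05 was reached by 6, the share in expanded clones again among them. The test gives a smallest p of 0.0286, so that at least 10 of the 16 values would have to reach it for an adjusted p under 0.05. For the difference of the differences 0 of 16 were called and 6 had an unadjusted p under 0.05.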

How the data were processed

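Paired receptor contigs were read from 8 deposited contig annotation tables, 1 per library. Per the submitters' processing notes, Cell Ranger, R 4.3.1 and the mm10 build were used; no Cell Ranger version is named there. The read and UMI counts per contig and the contig length (not used for a result) are as deposited by the authors, without normalization. IGKV2-137 and the gene lists were chosen with earlier results of these data known. Coordinates are RefSeq's, GRCm38.p6.

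Cells had exactly 1 heavy and 1 light contig, which leaves out barcodes where several cells gave contigs of the same chain. No doublet caller was run, and the share of doublets left is not known. Clones shared V and J genes of both chains, heavy CDR3 length and 0.85 heavy CDR3 nucleotide identity (single linkage). Expanded clones were counted over 100 draws of 4585 cells a library. Germlines were the most common framework 1 to framework 3 sequences over at least 20 clones (77 IGHV and 80 light genes), taken over both pools together. An allele that is the most common sequence of its gene would not count as mutation, but any other allele would.

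Cells per IGHV gene were tested with edgeR 4.0.16 (glmQLFit, glmQLFTest, filterByExpr; library size as the cells of the class) in R 4.3.3. DESeq2 1.42.0 served as the other count model. 16 single values were compared by exact two-sided permutation tests: 70 assignments of libraries to genotypes, or 256 sign flips of the within-library difference. P-values were adjusted by Benjamini-Hochberg within each family, with a threshold of 0.05. Tables used Python 3.11.15, pandas 2.3.3, NumPy 2.4.6, Biopython 1.88 and matplotlib 3.10.9. The tests were tested on simulated data, where the KO against WT partner fit recovered few of the changed genes, so a gene it does not call may still differ; on the real data its dispersion rests on 3 genes. Genes are named by rule: the 10 most frequent IGHV partners, up to 10 called in each direction, all J and constant genes, 8 light CDR3s, the 5 largest clones per pool, 8 codons, and related or frequent kappa genes. No label says that replicate numbers pair the libraries. The correlation of deviations was -0.53, -0.92, -0.30 and -1 for the 4 numbers, on 3 genes whose shares depend on each other, which cannot decide pairing, so no pairing was assumed. Alternatives covered clones counted once, UMI minimum, extra light contigs, clone and germline rules, scaling, filters and each library left out.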

Additional observations from a re-analysis of the deposited data

Results flagged for a closer look

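Of 82 groups of 4 libraries, 6 held a library whose gap to its nearest neighbour exceeded Dixon's critical share of the group's range, and chance gives about 1 in 20. In KO replicate 3 the pair took 68.4% of IGKV2-137 cells (58.1 to 59.7% in the other KO libraries) and the effective number of IGHV genes was 8.13 (11.0 to 11.3). In WT replicate 2 the effective number was 5.00 (4.75 to 4.77) and cells without an IGHV mutation were 72.6% (69.9 to 70.1%). In KO replicate 1 a light CDR3 of 33 nucleotides was found in 99.6% of members (100% in the others, a difference of 1 cell), and the common first 4 heavy CDR3 codons in 2.11% of members with another heavy gene (0% in the others).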

How the results depend on the processing

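With each clone counted once, values that had not passed turned sign: class-switched cells KO minus WT to -0.451, IGHJ1 to 0.00785 and IGHJ2 to 0.323, and IGHV mutation in members minus other kappa cells to 0.0485; cells without a light V mutation no longer passed (2.78, adjusted p = 0.152). The difference of differences turned to 0.535 for those cells, 0.797 for IGHJ1 and -2.69 for IGHJ3. With any number of light contigs, IGHJ1 KO minus WT was 0.00368 and IGHJ2 0.155, and the difference of differences 1.22 for IGHJ2 and -0.627 for IGHJ3. Class-switched cells, members minus other kappa cells, passed at -1.97 (at least 5 UMIs) and -2.04 (any light contigs), but not at -1.57 (each clone counted once). With 1 library left out this value ran from -2.69 to -1.78, IGHJ1 KO minus WT from -1.36 to 0.0573 (positive without KO replicate 3), and the difference of differences from -0.203 to 2.57 for IGKJ5 and from -0.146 to 2.53 for IGHJ3 (negative without KO replicate 3 at -0.146 and without WT replicate 3 at -0.0555).

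Partner genes called numbered 60 of 96 without the filter and 15 of 46 without pair cells, an alternative chosen after seeing the data. Between KO and WT they numbered 18 of 63 without the filter, 1 of 2 by clone and 1 of 1 without pair cells (IGHV1-81). With 1 library left out they ran from 38 to 39 and from 2 to 3 (3 of 4 without KO replicate 3). The fit with the replicate block called 2 genes between KO and WT, and the partner fit without the replicate block 38, both as in the reported fits. Against other kappa cells, IGHV1-81 turned to 0.18 and IGHV1-22 to 0.56 with TMM factors, IGHV1-22 to 0.22 with DESeq2 and 0.0095 without the block, and IGHV1-59 to -0.64 by clone. With 1 library left out IGHV1-59 ran from -0.20 to 0.30 (-0.20, -0.08, -0.17 and -0.19 without KO replicates 1 to 4) and IGHV1-22 from -0.45 to 0.18 (0.11, 0.06, 0.08 and 0.18). Without pair cells IGHV1-81 stood at 1.33, IGHV1-22 at 1.77, IGHV1-9 at 0.30, IGHV9-3 at 0.61, IGHV1-53 at 0.46 and IGHV2-5 at 0.34. Between KO and WT, IGHV1-62-2 was 6.64e-08 with DESeq2 and IGHV1-71 -0.23 by clone. The DESeq2 value of IGHV1-62-2 follows from scaling on the 3 genes left by the filter. The cause of the other shifts was not tested. Depth limits the class values, with 9 to 21 switched members a library, and the libraries of a genotype divide 1 pool.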

Other observations

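In the 190 barcodes with 1 heavy and more than 1 light contig, the second light chain was spread over 46 genes, most often IGKV6-25 (24), IGKV1-135 (18) and IGKV1-117 (14), and 12 were lambda. Heavy V regions without a mutation were seen in 72.0% ± 1.59 of WT and 78.4% ± 2.83 of KO pair cells (SD, n = 4), and in 66.1% ± 3.54 and 72.0% ± 5.89 of members with another heavy gene. The 369 members with a mutated light V region carried 1.77 mutations each on average and at most 8.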
